A study of Mus musculus with 16 samples.

Results

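CD9+ macrophages were compared between postoperative day (POD) 14 and POD 1 after anterior cruciate ligament reconstruction (ACLR) in mice. The groups compared held 4 of the 16 bulk RNA-seq libraries of the study, namely the 2 libraries of CD9+ cells of each day, chosen by the population and day in their labels. In this model the ligament is cut and replaced by a tendon graft, and the cells came from the interface tissue that forms around the grafted tendon. All mice were untreated C57BL/6 wild-type animals that had undergone the surgery, and the methods describe them as adult males. The tissue was enzymatically digested, and CD9+ macrophages were flow sorted on both days as live cells that bore CD45, CD11b, F4/80 and CD9 but neither Ly6G nor Lin, which stands for markers of progenitor, red blood, NK, T and B cells. The gate did not exclude cells that also bore CX3CR1. CX3CR1+ macrophages and F4/80- myeloid cells, sorted on the same days with 2 libraries per day each, were used to test whether a change was different in CD9+ cells. All 16 libraries, neutrophils included, entered the model and so shaped the estimate of the spread and the choice of genes tested. Each library held cells pooled from several mice, so differences between replicates are differences between pools of animals.

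Macrophages are phagocytes that enter injured tissue as blood monocytes or reside there beforehand. Shortly after injury they typically secrete interleukin-1 and chemokines, which recruit further leukocytes, and run on glycolysis. Later they clear debris and make growth factors for repair. CD9 is a tetraspanin, a membrane protein that organises other surface proteins, and is found on many leukocytes, eosinophils and platelets included.

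The libraries held 14059144 and 10587857 counted reads on POD 1 and 9426068 and 9233952 on POD 14. Values are given in CPM, the reads of a gene relative to the total of its library, scaled with trimmed mean of M values (TMM) factors, in the order replicate 1 and replicate 2. The POD 1 replicates were less alike than those of any other group. The standard deviation (SD) of their log2 ratio over the 11998 genes tested was 0.912, against 0.382 to 0.625 in the other 7 groups, and 2154 genes (18%) were over 2-fold apart, 10.3% with the higher value in replicate 1 and 7.69% in replicate 2, against 589 (4.91%) between the POD 14 replicates. Genes overlapping ribosomal RNA took 3.42% of the reads of POD 1 replicate 1 and 9.68% of those of replicate 2, and mitochondrial genes took 17.7% and 11.9%. Neutrophil markers differed in the same pair. Their sum was 22504 CPM in replicate 1 and 7303 CPM in replicate 2, and that of B and plasma cell markers was 1269.6 and 559.8 CPM. Among genes with at least 20 CPM, the immunoglobulin heavy chain gene Ighg2c was furthest apart in favour of replicate 1 (268 and 0 CPM) and Igha in favour of replicate 2 (0 and 64.6 CPM). Each count below was therefore also obtained without either POD 1 library. The part of these differences in the results was not tested.

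**Figure D1:**
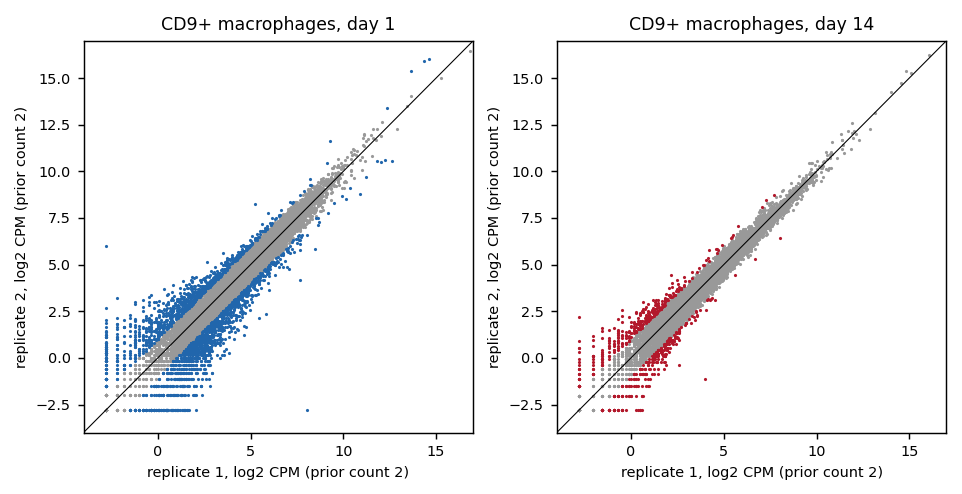
Expression of each of the 11998 tested genes in replicate 1 (x axis) and replicate 2 (y axis) of CD9+ macrophages on POD 1 (left) and POD 14 (right), in log2 CPM with a prior count of 2. Coloured points are genes over 2-fold apart, 2154 on POD 1 and 589 on POD 14, and the line marks equal values.

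The genes that define the gate were present on both days. Cd9 was at 149 and 149 CPM on POD 1 and 142 and 184 CPM on POD 14, and Adgre1, which encodes F4/80, at 120.3 and 159 CPM on POD 1 and 145 and 217 CPM on POD 14. The 2 days overlapped for both genes, and neither was called (adjusted p = 0.50 and 0.25). Ly6g, the neutrophil antigen gated out, was at 1.91 and 0.106 CPM on POD 1 and 4.99 and 2.64 CPM on POD 14 and was called higher (log2 fold change 1.73 ± 0.55 SE, edgeR adjusted p = 0.042). Its call was lost without POD 1 replicate 2 (1.01) and without POD 14 replicate 1 (1.20), with the 4 libraries alone and with sample weights. The 11 macrophage markers summed to 7403 and 7946 CPM on POD 1 and 6011 and 6838 CPM on POD 14. Their sum was 10459 to 12905 CPM in CX3CR1+ and 4326 to 5352 CPM in F4/80- libraries. Macrophage markers lower on POD 14 included the endotoxin co-receptor gene Cd14 and Fcgr1, a high-affinity receptor for IgG, while Csf1r and Lyz2 were among those that did not reach the thresholds.

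Between POD 1 and POD 14, 988 of the 11998 genes tested (8.23%) were differentially expressed genes (DEGs), 570 higher (4.75%) and 418 lower (3.48%) on POD 14. A DEG had to pass an adjusted p of 0.05 (Benjamini-Hochberg) in the quasi-likelihood test of edgeR and to change at least 2-fold, which is 1 on the log2 scale. With scaling by library size alone the split was 810 higher and 300 lower, and the median log2 fold change over all tested genes was 0.197 in place of 0.00406. In 986 of the 988 DEGs (99.8%) the 2 days did not overlap, as in 51.8% of all genes tested. Without POD 1 replicate 1 there were 1745 DEGs and without POD 1 replicate 2 there were 1052, and 526 of the 988 (53.2%) were called in both of these fits. A fit of the 4 CD9+ libraries alone called 308, of which 305 were among the 988, and limma-voom with sample weights called 454, of which 450 were. Leaving out each of the 4 libraries in turn, the 4 libraries alone and the sample weights make 6 further fits, and 227 DEGs (23%) were called in all of them, 92 higher and 135 lower. A call is described as held in the 6 fits where this applies.

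The share of all tested genes that each further fit called is the background for the counts of list members given below. Leaving out POD 1 replicate 1 it was 8.88% higher and 5.63% lower (14.5% in all), and leaving out POD 1 replicate 2 it was 5.14% and 3.58% (8.72%). Leaving out POD 14 replicate 1 gave 2.68% higher and 2.12% lower (4.8%), and leaving out POD 14 replicate 2 gave 2.95% and 3.4% (6.35%). The 4 libraries alone called 1.33% higher and 1.5% lower (2.83%), and the sample weights 1.37% and 2.42% (3.78%).

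Nos2 and Arg1, both enzymes that use arginine, had the lowest fold changes among the named genes. Nos2 (chr11:78920787-78960254, mm10), the inducible nitric oxide synthase, was at 203 and 285 CPM on POD 1 and 1.34 and 0.912 CPM on POD 14 (log2 fold change -7.74 ± 0.49 SE, edgeR adjusted p = 3.04e-07). Arg1 (chr10:24915221-24927484), the cytosolic arginase that draws on the same substrate, was at 2180.1 and 2602 CPM on POD 1 and 33.5 and 44 CPM on POD 14 (log2 fold change -5.95 ± 0.24 SE, edgeR adjusted p = 1.46e-09). Both genes were high in each POD 1 library and far lower in each POD 14 library, although they are often used as markers of opposite macrophage states. Arg2, the mitochondrial arginase, was at 15.1 and 12.5 CPM on POD 1 and 0.96 and 1.62 CPM on POD 14 (log2 fold change -3.42 ± 0.34 SE, edgeR adjusted p = 1.56e-05), and Slc7a2, an arginine transporter, at 21.6 and 48.5 CPM on POD 1 and 8.54 and 11.3 CPM on POD 14 (log2 fold change -1.82 ± 0.41 SE, edgeR adjusted p = 0.0077). These 4 were the only DEGs among the 18 tested genes of arginine metabolism, itaconate synthesis and the oxidative burst, and all 4 were lower. The calls of Nos2, Arg1 and Arg2 held in the 6 fits. That of Slc7a2 was lost without POD 1 replicate 2 (-1.12) and without POD 14 replicate 1 (-1.61) and with the 4 libraries alone.

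Of the 12 genes with the lowest fold changes, Saa3, an acute-phase serum amyloid, was at 34.6 and 50.4 CPM on POD 1 and 1.34 and 0.71 CPM on POD 14 (log2 fold change -5.35 ± 0.34 SE, edgeR adjusted p = 3.04e-07). Vcan, a matrix proteoglycan of inflammatory monocytes, was at 949 and 1100.1 CPM on POD 1 and 70.3 and 83.5 CPM on POD 14 (log2 fold change -3.74 ± 0.25 SE, edgeR adjusted p = 5.43e-07). Il1a, an interleukin-1 cytokine, was at 65.4 and 67.7 CPM on POD 1 and 3.07 and 3.65 CPM on POD 14 (log2 fold change -4.31 ± 0.51 SE, edgeR adjusted p = 6.44e-05). The protease inhibitor gene Spint1, the glycerol lipid enzyme gene Gpat3 and the endothelin receptor gene Ednrb lay between 24.5 and 44.4 CPM in the POD 1 libraries and at 1.82 CPM or lower in the POD 14 libraries. The remaining members of the 12 were Ppbp, Cxcl3, Oplah and Gm43181. All of the 12 except Gm43181 held in the 6 fits.

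**Figure D2:**
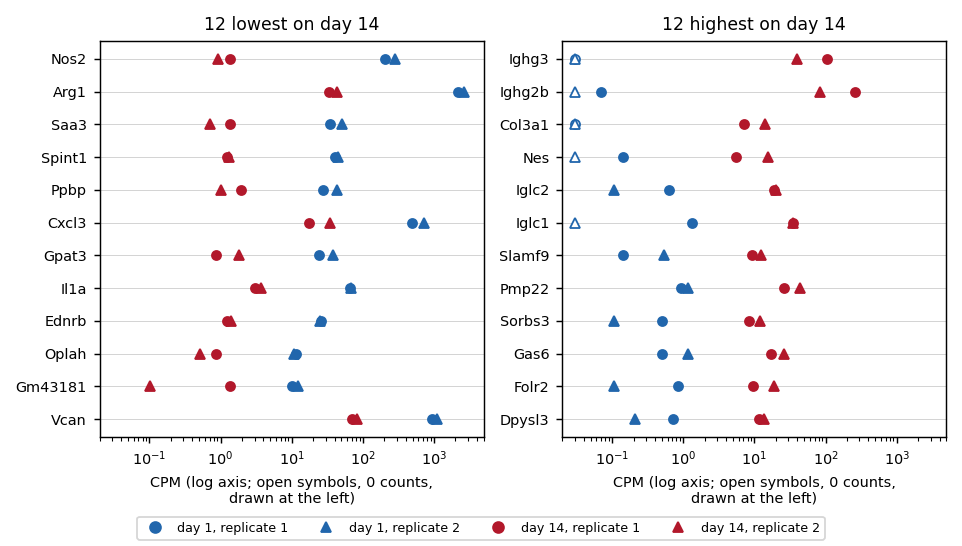
CPM of the 12 DEGs with the lowest (left) and the 12 with the highest (right) log2 fold change, among those with non-overlapping days and a mean of at least 10 CPM in the higher group, on a log axis. Blue symbols are the POD 1 and red symbols the POD 14 libraries. By the choice of genes, all red symbols lie on one side of all blue symbols in each of the 24.

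Of 20 tested CXC and CC chemokines 8 fell and 2 rose, and 3 genes of the interleukin-1 family fell. Of 10 tested CXC chemokines, which attract mainly neutrophils and lymphocytes, 5 were lower and 1 was higher on POD 14, and the median log2 fold change was -1.84, against 0.00406 over all genes tested. The lower ones were 3 when POD 1 replicate 2 was left out. Cxcl2, a neutrophil attractant, was the most abundant, with 838 and 1284 CPM on POD 1 and 133 and 239 CPM on POD 14 (log2 fold change -2.52 ± 0.33 SE, edgeR adjusted p = 1.65e-04). Cxcl3, a close relative, was at 490.0 and 718 CPM on POD 1 and 17.7 and 34.2 CPM on POD 14 (log2 fold change -4.54 ± 0.43 SE, edgeR adjusted p = 1.02e-05). Cxcl1 was at 25.2 and 42 CPM on POD 1 and 5.86 and 8.41 CPM on POD 14 (log2 fold change -2.23 ± 0.59 SE, edgeR adjusted p = 0.019). In all 3 genes each POD 14 library was below each POD 1 library. The 5 genes that fell lie in one cluster on chromosome 5 of mm10, in the order Ppbp (chr5:90768518-90770063), Pf4 (chr5:90772435-90773383), Cxcl3 (chr5:90786103-90789600), Cxcl1 (chr5:90891241-90893115) and Cxcl2 (chr5:90903871-90905938). Ppbp and Pf4 are also platelet genes, and the 6 tested platelet markers, these 2 included, summed to 211 and 269 CPM on POD 1 and 178 and 165 CPM on POD 14. Only these 2 of the 6 were DEGs, or 1 lower and 1 higher when POD 1 replicate 2 was left out, and the part of platelets was not tested. The call of Cxcl1 was lost without POD 1 replicate 2 (-1.81) and without either POD 14 library, and that of Pf4 likewise (-1.34 without POD 1 replicate 2).

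Promoters of these genes were searched for GGG, any 2 bases and TTTCC, the core of a site for NF-κB, the transcription factor that drives many inflammatory genes. The search covered both strands of the RefSeq windows (GRCm38.p6, the same sequence as mm10) from 250 bases before to 50 bases after a start site. The motif was in 5 of the 18 genes that have a window (27.8%) among the 25 lower DEGs of the interleukin-1, chemokine and inflammatory mediator lists, and in 2.11% of all 8851 tested genes with a window. The 5 were Ccl9, Cxcl1, Cxcl2, Cxcl3 and Il1rn. The 3 Cxcl genes are related neighbours in the cluster on chromosome 5, so they need not be separate cases. The motif and the genes were chosen with their values known, and a match says nothing on binding in these cells. The same 10 letters occurred in Cxcl1, Cxcl2 and Cxcl3, and these 30-base stretches are shown because the 3 genes fell together, with the match in capitals, on the gene's strand and 5′ to 3′.
Cxcl1 (chr5:90891164-90891193, match beginning 71 bases before the start site): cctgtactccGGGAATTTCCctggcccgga
Cxcl2 (chr5:90903792-90903821, 97 bases before): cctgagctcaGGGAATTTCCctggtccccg
Cxcl3 (chr5:90786018-90786047, 73 bases before): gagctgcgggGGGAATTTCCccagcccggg
Cxcl1 and Cxcl2 each held a further match that differs in its letters. The whole window of Cxcl3, the gene of the 3 with the largest decrease, lies at chr5:90785851-90786150 on the plus strand.
Cxcl3 window: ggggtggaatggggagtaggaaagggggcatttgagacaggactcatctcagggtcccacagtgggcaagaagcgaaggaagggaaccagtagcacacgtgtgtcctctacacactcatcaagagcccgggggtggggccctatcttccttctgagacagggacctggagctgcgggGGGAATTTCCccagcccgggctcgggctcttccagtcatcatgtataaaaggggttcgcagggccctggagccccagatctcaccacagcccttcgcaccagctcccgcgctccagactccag

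Cxcl9, an interferon-induced attractant of T cells, was the CXC chemokine that rose. It had 0 counts in both POD 1 libraries and 10.1 and 6.08 CPM on POD 14, at least 30.6-fold higher, taking 3 counts in each POD 1 library as the floor. Of 10 tested CC chemokines, 3 fell and 1 rose. The monocyte attractant genes Ccl2 and Ccl7 were at 546 and 393 CPM on POD 1 and 63.9 and 88.2 CPM on POD 14 (log2 fold change -2.63 ± 0.21 SE, edgeR adjusted p = 1.94e-06) and at 142 and 155 CPM on POD 1 and 9.6 and 16.4 CPM on POD 14 (log2 fold change -3.51 ± 0.30 SE, edgeR adjusted p = 3.99e-06). Ccl9 was at 479 and 416 CPM on POD 1 and 188 and 229.8 CPM on POD 14 and -1.10 ± 0.15, adjusted p = 1.78e-04 on the log2 scale, and Ccl3, at 143 and 152 CPM on POD 1 and 109.9 and 102 CPM on POD 14, was not called. Ccl5, the gene that rose, was at 0.354 and 0.422 CPM on POD 1, then 3.17 and 2.53 CPM on POD 14. Its call was lost in 5 of the 6 fits. It did not pass the CPM filter without POD 14 replicate 1. The call of Ccl9 was lost without POD 1 replicate 1 (-0.99) and without POD 14 replicate 1 (-0.95).

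Il1b, the main secreted interleukin-1 of macrophages, was at 369 and 507 CPM on POD 1 and 73 and 78.6 CPM on POD 14 (log2 fold change -2.53 ± 0.19 SE, edgeR adjusted p = 1.45e-06), and Il1rn, the antagonist of its receptor, at 165 and 209 CPM on POD 1 and 45.9 and 75.4 CPM on POD 14 (log2 fold change -1.62 ± 0.24 SE, edgeR adjusted p = 4.14e-04). Agonists and antagonist thus were all lower in each POD 14 library, and the calls of Il1a, Il1b and Il1rn held in the 6 fits. In the same list of 10 tested genes, 2 receptor genes were higher. Il18rap, a subunit of the interleukin-18 receptor, was at 61.7 and 50.9 CPM on POD 1 and 117 and 114 CPM on POD 14 (log2 fold change 1.04 ± 0.13 SE, edgeR adjusted p = 8.63e-05), and its call was lost without POD 1 replicate 2 (0.91). Il1rl1, the receptor for interleukin-33, was at 7.64 and 7.39 CPM on POD 1 and 17.8 and 19.97 CPM on POD 14 (log2 fold change 1.33 ± 0.35 SE, edgeR adjusted p = 0.018). The call of Il1rl1 was lost without POD 14 replicate 1 (1.42) and without POD 14 replicate 2 (1.24), with the 4 libraries alone and with sample weights.

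Of 37 tested inflammatory mediators and NF-κB feedback genes, 14 were lower and 1 was higher, with a median log2 fold change of -0.70. Without POD 1 replicate 1 the counts were 15 lower and 1 higher, and without replicate 2 they were 10 and 1. Ptgs2, the inducible cyclooxygenase, was at 238 and 371 CPM on POD 1 and 45.4 and 57.7 CPM on POD 14 (log2 fold change -2.56 ± 0.27 SE, edgeR adjusted p = 2.54e-05). Thbs1, a secreted matricellular protein that was the most abundant of the 14, was at 5331 and 10798 CPM on POD 1 and 880.2 and 972 CPM on POD 14 (log2 fold change -3.12 ± 0.28 SE, edgeR adjusted p = 6.36e-06). The feedback inhibitor gene Socs3 was at 392 and 603 CPM on POD 1 and 66.6 and 119 CPM on POD 14 (log2 fold change -2.43 ± 0.26 SE, edgeR adjusted p = 3.16e-05). Each of these 3 was higher in both POD 1 libraries, and each call held in the 6 fits. The inflammasome sensor gene Nlrp3 was at 129 and 249 CPM on POD 1 and 70.3 and 57.6 CPM on POD 14 (log2 fold change -1.56 ± 0.28 SE, edgeR adjusted p = 0.0015). The gene that rose was Il6, a cytokine that drives the acute phase, at 2.76 and 4.33 CPM on POD 1 and 17.9 and 15.7 CPM on POD 14 (log2 fold change 2.28 ± 0.31 SE, edgeR adjusted p = 1.79e-04). Its levels were low on both days, the 2 days did not overlap, and its call held in the 6 fits. Tnf, at 58.2 and 71.9 CPM on POD 1 and 47.2 and 46.8 CPM on POD 14, was not called (adjusted p = 0.19). The adjusted p of Nlrp3 did not pass in the fit of the 4 libraries alone.

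Macrophages sense microbes, debris and chemoattractants through dedicated receptors. Of 20 tested pattern recognition receptors 9 were lower and 0 higher, and of 15 chemokine and chemoattractant receptors 6 were lower and 0 higher. Tlr2, a receptor for lipopeptides, was at 177 and 315 CPM on POD 1 and 75.9 and 94.9 CPM on POD 14 (log2 fold change -1.52 ± 0.21 SE, edgeR adjusted p = 1.94e-04). Clec4d and Clec4e, paired C-type lectins for mycobacterial glycolipids, had log2 fold changes of -1.94 (adjusted p = 3.42e-04) and -1.29 (adjusted p = 0.0010), and the scavenger receptor gene Msr1 had -1.46 (adjusted p = 4.27e-04). Among the receptors for attractants, Ccr2, which brings monocytes out of the bone marrow, was at 638 and 637 CPM on POD 1 and 267 and 334 CPM on POD 14 (log2 fold change -1.09 ± 0.22 SE, edgeR adjusted p = 0.0039). C5ar1, the receptor for complement fragment C5a, and Ccr1 also fell, with log2 fold changes of -1.26 and -1.23. Fpr1, the formyl peptide receptor, was at 17.1 and 18 CPM on POD 1 and 2.98 and 1.32 CPM on POD 14 (log2 fold change -3.01 ± 0.31 SE, edgeR adjusted p = 1.69e-05). The call of Ccr2 was lost without POD 14 replicate 1 (-0.92), and Msr1 was not called with the 4 libraries alone.

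Cells in hypoxic tissue typically induce glycolytic enzymes and glucose transporters. Of 34 tested genes of glycolysis and the hypoxia response, 18 were lower and 1 was higher, and the median log2 fold change was -1.15. There were 25 lower without POD 1 replicate 1 and 12 without replicate 2, and 1 was higher in either fit. The list's genes were also higher in POD 1 replicate 2 than in replicate 1, by a median of 0.54 on the log2 scale. Slc2a1, the main glucose transporter, was at 148 and 318 CPM on POD 1 and 34.1 and 35.5 CPM on POD 14 (log2 fold change -2.74 ± 0.27 SE, edgeR adjusted p = 1.31e-05). Pkm, the pyruvate kinase, was the most abundant, at 1460.4 and 2330.3 CPM on POD 1 and 779 and 754 CPM on POD 14 (log2 fold change -1.31 ± 0.17 SE, edgeR adjusted p = 1.77e-04). The POD 1 replicates were unlike in both genes, replicate 2 being the higher, and both lay above the POD 14 libraries. Hif1a, the oxygen-regulated transcription factor, was at 472 and 526 CPM on POD 1 and 157 and 177 CPM on POD 14 (log2 fold change -1.58 ± 0.15 SE, edgeR adjusted p = 7.77e-06). Egln3, a hydroxylase that hypoxia induces, was at 64.2 and 96.6 CPM on POD 1 and 8.54 and 9.02 CPM on POD 14 (log2 fold change -3.19 ± 0.24 SE, edgeR adjusted p = 1.45e-06). Bnip3, a mitophagy receptor with the same regulation, was at 85.5 and 81.4 CPM on POD 1 and 16.1 and 15.5 CPM on POD 14 (log2 fold change -2.40 ± 0.14 SE, edgeR adjusted p = 2.16e-07). Vegfa, the angiogenic factor, was at 255 and 398 CPM on POD 1 and 89.7 and 90.4 CPM on POD 14 (log2 fold change -1.86 ± 0.20 SE, edgeR adjusted p = 3.45e-05). In each of these genes the POD 1 libraries lay above the POD 14 libraries. Other members had smaller decreases, with log2 fold changes of -1.151 for Aldoa, -1.16 for Eno1, -1.28 for Tpi1 and -1.08 for Pfkfb3. Gapdh (-0.94) and Ldha (-0.94) passed the adjusted p but not the threshold on the fold change. The call was lost without POD 1 replicate 2 for Pkm (-0.93), Aldoa (-0.82), Eno1 (-0.97), Tpi1 (-0.78) and Pfkfb3 (-0.91). The 1 member that rose was Slc2a3, a second glucose transporter, at 72.5 and 54.7 CPM on POD 1 and 178 and 155 CPM on POD 14 (log2 fold change 1.39 ± 0.21 SE, edgeR adjusted p = 4.78e-04), and its call held in the 6 fits.

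A hypoxia response element is bound by the HIF transcription factors, and its letters TACGTG were searched on both strands of the same RefSeq windows. They were in 3 of the 15 lower genes of this list that have a window (20%), namely Ankrd37, Mif and P4ha1, and in 4.62% of the 8851 genes. The window of Ankrd37, an ankyrin repeat protein, is shown because this gene had the largest decrease of the 3. The window held 2 matches, which are in capitals. It lies at chr8:45999801-46000100 (GRCm38.p6) and is given on the gene's minus strand.
Ankrd37 window: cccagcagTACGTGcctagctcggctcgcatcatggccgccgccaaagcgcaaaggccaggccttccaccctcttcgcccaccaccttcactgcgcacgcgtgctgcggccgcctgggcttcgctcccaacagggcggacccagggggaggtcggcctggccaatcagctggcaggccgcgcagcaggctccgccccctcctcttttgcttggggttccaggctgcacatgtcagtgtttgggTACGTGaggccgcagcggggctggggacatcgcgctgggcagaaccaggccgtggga
Ankrd37 itself was at 6.79 and 13.9 CPM on POD 1 and 2.21 and 2.33 CPM on POD 14 (log2 fold change -2.17 ± 0.48 SE, edgeR adjusted p = 0.0066), and its call was lost without POD 14 replicate 1 (-2.12), with the 4 libraries alone and with sample weights.

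Of 26 tested genes of heme and iron handling 4 fell and 0 rose, and when POD 1 replicate 1 was left out 4 fell and 2 rose. Hmox1, the heme oxygenase, was at 838 and 1616 CPM on POD 1 and 92.8 and 105 CPM on POD 14 (log2 fold change -3.63 ± 0.31 SE, edgeR adjusted p = 3.99e-06). The ferritin chains Fth1 and Ftl1 were at 2904 and 3918 CPM on POD 1 and 953 and 1298 CPM on POD 14 (log2 fold change -1.60 ± 0.22 SE, edgeR adjusted p = 1.92e-04) and at 712 and 1258 CPM on POD 1 and 228 and 313 CPM on POD 14 (log2 fold change -1.86 ± 0.21 SE, edgeR adjusted p = 4.32e-05). All 3 held in the 6 fits, and POD 1 replicate 2 was the highest library for each. Ferritin genes have processed copies in the genome that may share their reads. With Spic, a transcription factor of iron-recycling macrophages, they were the 4 DEGs of this list.

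Several matrix genes that macrophages secrete were abundant on POD 1 and lower on POD 14. Fn1, which encodes fibronectin, was at 12667 and 16754 CPM on POD 1 and 3353 and 4583 CPM on POD 14 (log2 fold change -1.89 ± 0.23 SE, edgeR adjusted p = 9.13e-05). Spp1, which encodes osteopontin, was at 2582 and 3374 CPM on POD 1 and 286 and 498 CPM on POD 14 (log2 fold change -2.92 ± 0.23 SE, edgeR adjusted p = 2.29e-06), and Tgfbi, a secreted adhesion protein, at 3070.4 and 3582 CPM on POD 1 and 595 and 749.7 CPM on POD 14 (log2 fold change -2.31 ± 0.18 SE, edgeR adjusted p = 1.45e-06). For all 3 the POD 14 libraries lay far below both POD 1 libraries. In all, 7 of 17 tested matrix and matricellular genes fell and 2 rose, or 1 with the 4 libraries alone and 0 with sample weights. Those that rose were at low levels. Col3a1, a fibroblast collagen, had 0 counts on POD 1 and 7.1 and 13.9 CPM on POD 14, at least 39.7-fold higher, and Tnc, which encodes tenascin-C, had 3 counts over the POD 1 and 82 over the POD 14 libraries, a CPM ratio of 31.8-fold (95% interval 10.5 to 158) that covers counting error only. The calls of Fn1, Spp1 and Tgfbi held in the 6 fits, and that of Col3a1 was lost without any 1 of the 4 libraries.

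Proteases and their inhibitors moved both ways, with 4 of 14 tested lower and 2 higher, and 2 of each with the 4 libraries alone. Mmp12, the macrophage metalloelastase, rose from 3.89 and 4.65 CPM to 39.4 and 65.7 CPM (log2 fold change 3.63 ± 0.58 SE, edgeR adjusted p = 6.95e-04). Timp2, a metalloproteinase inhibitor, rose from 24 and 10.3 CPM to 115 and 175 CPM (log2 fold change 3.05 ± 0.32 SE, edgeR adjusted p = 2.59e-05). Timp1, another inhibitor, was at 13.2 and 19.9 CPM on POD 1 and 1.63 and 1.82 CPM on POD 14 (log2 fold change -3.25 ± 0.71 SE, edgeR adjusted p = 0.0066). Mmp19 was at 224 and 429 CPM on POD 1 and 43.3 and 70.6 CPM on POD 14 (log2 fold change -2.52 ± 0.30 SE, edgeR adjusted p = 6.75e-05). The 2 inhibitors thus changed in opposite directions. The call of Timp1 was lost without either POD 14 library, while Mmp12, Timp2 and Mmp19 held in the 6 fits.

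Genes of alternatively activated and tissue-resident macrophages contained the most increases of any macrophage list, 9 of 23 tested, beside 4 decreases. The counts were 9 and 5 without POD 1 replicate 1 and 8 and 3 without replicate 2. Igf1, a growth factor for muscle and tendon, was at 2.55 and 1.9 CPM on POD 1 and 27.6 and 42.2 CPM on POD 14 (log2 fold change 3.95 ± 0.55 SE, edgeR adjusted p = 2.60e-04). Gas6, a bridge between dying cells and their phagocytic receptors, was at 0.495 and 1.16 CPM on POD 1 and 17 and 26.5 CPM on POD 14 (log2 fold change 4.75 ± 0.69 SE, edgeR adjusted p = 3.30e-04). Cbr2, a carbonyl reductase, was at 2.97 and 4.22 CPM on POD 1 and 29.9 and 39.2 CPM on POD 14 (log2 fold change 3.27 ± 0.38 SE, edgeR adjusted p = 8.19e-05). The 3 genes were low in both POD 1 libraries and higher in both POD 14 libraries, and their calls held in the 6 fits. Mrc1, the mannose receptor CD206, was the most abundant of the 9 and rose less, with 35.6 and 41.4 CPM on POD 1 and 81.2 and 109 CPM on POD 14 (log2 fold change 1.31 ± 0.31 SE, edgeR adjusted p = 0.010). Folr2, a folate receptor of resident macrophages, was at 0.849 and 0.106 CPM on POD 1 and 9.6 and 18.6 CPM on POD 14 (log2 fold change 4.74 ± 1.01 SE, edgeR adjusted p = 0.0065). Lyve1, a hyaluronan receptor, had 1 count on POD 1, and was at 3.07 and 2.53 CPM on POD 14, a ratio of 66.3-fold (95% interval 11.4 to 2666). Mgl2 and Cd209a, both C-type lectins, rose by a log2 fold change of 3.36 (adjusted p = 2.23e-04) and 2.80 (adjusted p = 4.54e-04). Those that fell included Arg1, Pf4 and F13a1. The last of these, a coagulation factor subunit of monocytes, was at 1427 and 1868 CPM on POD 1 and 701 and 583 CPM on POD 14 (log2 fold change -1.36 ± 0.23 SE, edgeR adjusted p = 0.0012). The call of Mrc1 was lost without POD 14 replicate 2 (1.08), and Folr2, Lyve1 and Mgl2 were not called with sample weights.

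Growth factors for repair showed 4 increases and 3 decreases among 16 tested, and 1 decrease when POD 1 replicate 2 was left out. Beside Igf1 and Gas6, Pdgfb, a platelet-derived growth factor for fibroblasts and pericytes, was at 1.49 and 3.91 CPM on POD 1 and 18.9 and 24.8 CPM on POD 14 (log2 fold change 3.05 ± 0.49 SE, edgeR adjusted p = 7.67e-04), and Pdgfc had 0 counts on POD 1 and 3.55 and 5.47 CPM on POD 14, at least 17.1-fold higher. The genes that fell were Vegfa, Areg at 3.89 and 9.4 CPM on POD 1 and 1.25 and 1.01 CPM on POD 14 (log2 fold change -2.53 ± 0.64 SE, edgeR adjusted p = 0.015) and Inhba, an activin subunit, at 81.8 and 90.7 CPM on POD 1 and 50.01 and 35.2 CPM on POD 14 (log2 fold change -1.02 ± 0.30 SE, edgeR adjusted p = 0.031). The calls of Areg and Inhba were lost without POD 1 replicate 2 (-1.77 and -0.94), without either POD 14 library, with the 4 libraries alone and with sample weights.

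The highest fold changes belonged to genes that were close to 0 on POD 1. Ighg3, an immunoglobulin heavy chain, had 0 counts on POD 1 and 103 and 39.4 CPM on POD 14, at least 269.6-fold higher. Ighg2b had 1 count on POD 1 and was at 259 and 84.4 CPM on POD 14. Immunoglobulin constant genes resemble each other, and reads may be split between them. Nes, which encodes the intermediate filament nestin, had 2 counts on POD 1 and was at 5.57 and 15.7 CPM on POD 14, a ratio of 124-fold (95% interval 33.9 to 1030.0). Slamf9, a myeloid surface receptor, was at 0.141 and 0.528 CPM on POD 1 and 9.21 and 12.3 CPM on POD 14 (log2 fold change 5.08 ± 0.83 SE, edgeR adjusted p = 0.0010). Pmp22, a peripheral myelin protein, was at 0.919 and 1.16 CPM on POD 1 and 25.9 and 43.3 CPM on POD 14 (log2 fold change 5.06 ± 0.70 SE, edgeR adjusted p = 2.51e-04). Of the 12 highest, Pmp22 and Gas6 held in the 6 fits. Those with the lowest adjusted p among the genes that rose were Arsb, a lysosomal sulfatase, at 68.5 and 49.3 CPM on POD 1 and 252 and 292 CPM on POD 14 (log2 fold change 2.20 ± 0.17 SE, edgeR adjusted p = 1.45e-06), and Cspg4, a chondroitin sulfate proteoglycan, at 3.46 and 6.02 CPM on POD 1 and 78.3 and 113 CPM on POD 14 (log2 fold change 4.36 ± 0.35 SE, edgeR adjusted p = 2.37e-06). Both held in the 6 fits, as did the next 4, the eosinophil genes Prg3 and Ear2, the lysozyme gene Lyz1 and the transporter gene Spns3.

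Most eosinophil markers rose. Eosinophils are granulocytes whose granules carry major basic protein, eosinophil peroxidase and eosinophil-associated ribonucleases, and they bear F4/80 and CD11b. Of 11 tested eosinophil markers 9 rose and 0 fell, with a median log2 fold change of 3.37, and the count was 9 also without either POD 1 library, and 7 with the 4 libraries alone. Prg2, which encodes major basic protein, was at 281 and 389.6 CPM on POD 1 and 3927 and 6237 CPM on POD 14 (log2 fold change 3.92 ± 0.53 SE, edgeR adjusted p = 1.83e-04). Epx, eosinophil peroxidase, was at 151 and 139.5 CPM on POD 1 and 1816 and 3066 CPM on POD 14 (log2 fold change 4.07 ± 0.54 SE, edgeR adjusted p = 1.72e-04). Both lay over 10-fold higher in each POD 14 library than in either POD 1 library. Ear6 was at 38.4 and 33.1 CPM on POD 1 and 528 and 852 CPM on POD 14 (log2 fold change 4.27 ± 0.46 SE, edgeR adjusted p = 2.85e-05), and Ear1 and Ear2 were called as well, although these ribonuclease genes are near-identical copies and may share reads. The surface markers had smaller fold changes. Siglecf, the eosinophil lectin, was at 25.5 and 16.8 CPM on POD 1 and 43 and 59.4 CPM on POD 14 (log2 fold change 1.27 ± 0.27 SE, edgeR adjusted p = 0.0049). Il5ra, the receptor of their growth factor interleukin-5, was at 13.7 and 5.7 CPM on POD 1 and 35.1 and 48.1 CPM on POD 14 (log2 fold change 2.08 ± 0.44 SE, edgeR adjusted p = 0.0060). The eotaxin receptor gene Ccr3, at 33.6 and 16.6 CPM on POD 1 and 39.9 and 36.6 CPM on POD 14, was not called. Calls were lost without POD 14 replicate 2 for Siglecf (1.02) and Il5ra (1.84).

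The 11 markers together summed to 779 and 817 CPM on POD 1 and 7628 and 12285 CPM on POD 14 in CD9+ libraries, against 39.9 to 135 CPM in CX3CR1+ and 74.6 to 178 CPM in F4/80- libraries. All of the eosinophil markers were above 0 in all 4 CD9+ libraries. The part of eosinophils within the gate was not tested, and in bulk libraries more cells of a type and more RNA per cell cannot be told apart. A GATA factor is needed for eosinophil development, and its letters TGATAA were in the RefSeq windows of 2 of the 7 called eosinophil markers that have one (28.6%), Prg3 and Siglecf, and of 5.5% of the 8851 genes. Prg3, a relative of major basic protein beside Prg2 on chromosome 2, was at 16.3 and 17.5 CPM on POD 1 and 182 and 315 CPM on POD 14 (log2 fold change 3.88 ± 0.35 SE, edgeR adjusted p = 6.36e-06). Its window at chr2:84987965-84988264 on the plus strand (GRCm38.p6) is shown with the match, on the opposite strand, in capitals.
Prg3 window: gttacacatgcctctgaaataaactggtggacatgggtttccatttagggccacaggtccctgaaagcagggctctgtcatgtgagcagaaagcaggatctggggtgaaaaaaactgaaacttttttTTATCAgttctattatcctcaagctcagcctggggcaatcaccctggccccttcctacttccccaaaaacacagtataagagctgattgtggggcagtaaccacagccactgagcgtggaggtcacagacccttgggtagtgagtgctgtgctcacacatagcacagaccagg

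Markers of other leukocytes moved as well. Of 10 tested basophil and mast cell markers 5 rose and 0 fell, and their sum was 309.7 and 161 CPM on POD 1 and 614 and 522 CPM on POD 14. Hdc, the histamine-forming enzyme, was at 108 and 47.9 CPM on POD 1 and 201 and 199 CPM on POD 14 (log2 fold change 1.35 ± 0.25 SE, edgeR adjusted p = 0.0022), and Cpa3, a mast cell protease, at 23.8 and 14.7 CPM on POD 1 and 37.3 and 46.2 CPM on POD 14 (log2 fold change 1.11 ± 0.30 SE, edgeR adjusted p = 0.019). All 10 were called without POD 1 replicate 1 and 3 without replicate 2. With the 4 libraries alone 0 were called. B and plasma cell markers had 4 increases among 8 tested and summed to 1269.6 and 559.8 CPM on POD 1 and 1841 and 1699 CPM on POD 14. Leaving out POD 1 replicate 1 gave 7 higher and 1 lower, leaving out replicate 2 gave 3 higher, the 4 libraries alone 2 and the sample weights 0. Jchain, which joins immunoglobulin subunits, was at 84.6 and 37 CPM on POD 1 and 185 and 149 CPM on POD 14 (log2 fold change 1.45 ± 0.37 SE, edgeR adjusted p = 0.014). The 18 neutrophil markers gave 4 increases and 2 decreases and summed to 22504 and 7303 CPM on POD 1 and 24727 and 16384 CPM on POD 14. The granule genes S100a8 and Ngp, at 1901 and 444 CPM on POD 1 and 2187 and 1663 CPM on POD 14 and at 6217 and 1509 CPM on POD 1 and 7544 and 4975 CPM on POD 14, were not called, and POD 1 replicate 2 was the low library for both. The neutrophil markers called higher were 9 without POD 1 replicate 1 and 1 without replicate 2. The part of these cells in the other results was not tested.

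**Figure D3:**
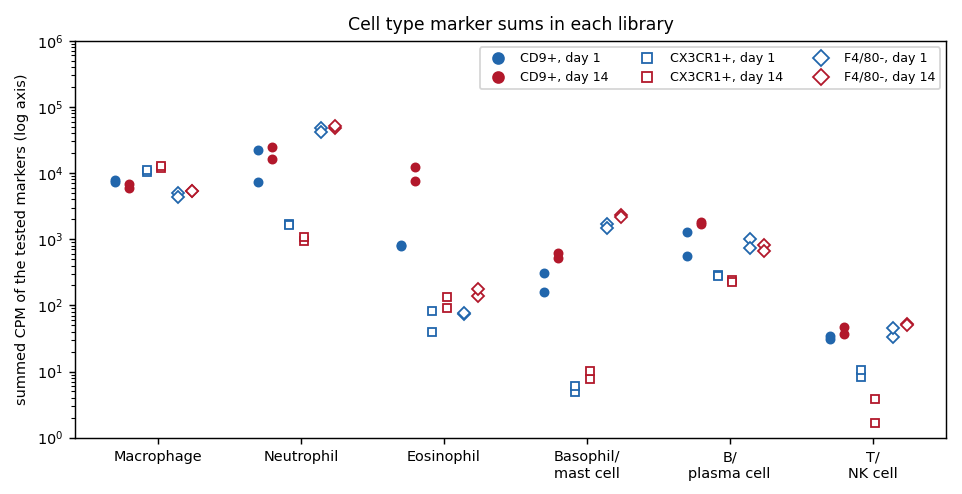
Summed CPM of the tested markers of 6 cell types in each CD9+ (filled circles), CX3CR1+ (squares) and F4/80- library (diamonds), on a log axis, with POD 1 in blue and POD 14 in red. Eosinophil markers lie at 779 and 817 CPM in the CD9+ libraries of POD 1 and at 7628 and 12285 CPM in those of POD 14, above every library of the other populations.

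Genes of the prostaglandin and leukotriene pathways changed in both directions, with 5 higher and 4 lower of 19 tested. Those higher included Alox15, a lipoxygenase made by eosinophils and resident macrophages, at 102 and 128 CPM on POD 1 and 368 and 498 CPM on POD 14 (log2 fold change 1.91 ± 0.21 SE, edgeR adjusted p = 3.10e-05). Hpgds, the hematopoietic prostaglandin D synthase, was at 2.4 and 3.27 CPM on POD 1 and 13.7 and 19.3 CPM on POD 14 (log2 fold change 2.55 ± 0.57 SE, edgeR adjusted p = 0.0066). Lta4h, which forms leukotriene B4, was at 398 and 178 CPM on POD 1 and 664 and 549 CPM on POD 14 (log2 fold change 1.07 ± 0.26 SE, edgeR adjusted p = 0.011). Those lower included Ptgs2 and the prostaglandin E synthase gene Ptges at 9.76 and 14.7 CPM on POD 1 and 3.17 and 3.04 CPM on POD 14 (log2 fold change -1.97 ± 0.37 SE, edgeR adjusted p = 0.0025), while the other E synthase genes Ptges2 (0.32) and Ptges3 (0.05) and the cyclooxygenase gene Ptgs1 (0.24) were not called. The call was lost without POD 1 replicate 2 for Lta4h (0.61), without POD 14 replicate 1 for Lta4h (0.94) and without POD 14 replicate 2 for Hpgds (2.28).

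Genes of lipid-handling macrophages of the Trem2 type gave 4 decreases and 2 increases among 24 tested (1 increase without either POD 1 library), with a median log2 fold change of -0.33. Plin2, which coats lipid droplets, was at 347 and 558 CPM on POD 1 and 125 and 199 CPM on POD 14 (log2 fold change -1.48 ± 0.21 SE, edgeR adjusted p = 2.86e-04), and the lysosomal protease gene Ctsl at 248 and 332 CPM on POD 1 and 56.9 and 98.3 CPM on POD 14 (log2 fold change -1.90 ± 0.22 SE, edgeR adjusted p = 5.85e-05). Cd63, a tetraspanin of lysosomes and granules, rose and was at 93 and 85.5 CPM on POD 1 and 183 and 225 CPM on POD 14 (log2 fold change 1.19 ± 0.19 SE, edgeR adjusted p = 7.84e-04). Apoe, which encodes the lipid carrier apolipoprotein E, was at 2024 and 1736 CPM on POD 1 and 829 and 1412 CPM on POD 14 and passed the adjusted p (0.022) but not the threshold on the fold change (-0.75). Of 14 leukocyte tetraspanins 2 rose, Cd63 and Cd81, the latter at 26.1 and 20.2 CPM on POD 1 and 58.6 and 51.7 CPM on POD 14 (log2 fold change 1.25 ± 0.18 SE, edgeR adjusted p = 3.74e-04), and 0 fell, and both calls held in the 6 fits. Plin2 was not called with the 4 libraries alone.

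Several large lists held few or no DEGs. None of 46 cell cycle genes, 19 MHC class I genes, 28 genes of cholesterol and fatty acid synthesis and 76 respiratory chain genes was called, nor was more than 1 of 12 MHC class II, 17 osteoclast and 81 ribosomal protein genes, each of these 3 being lower. Their median log2 fold changes were 0.19, 0.01, 0.07 and -0.20 for the first 4 lists. Of 55 genes of lysosomal enzymes and the proton pump 1 was higher and 2 were lower. When POD 1 replicate 1 was left out, 8 respiratory chain genes were called higher and 2 lower, 3 genes of cholesterol and fatty acid synthesis higher and 2 lower, 2 cell cycle genes higher, 3 osteoclast genes lower and 7 lysosomal genes lower. The cell cycle genes called were 1 without POD 1 replicate 2.

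**Figure D4:**
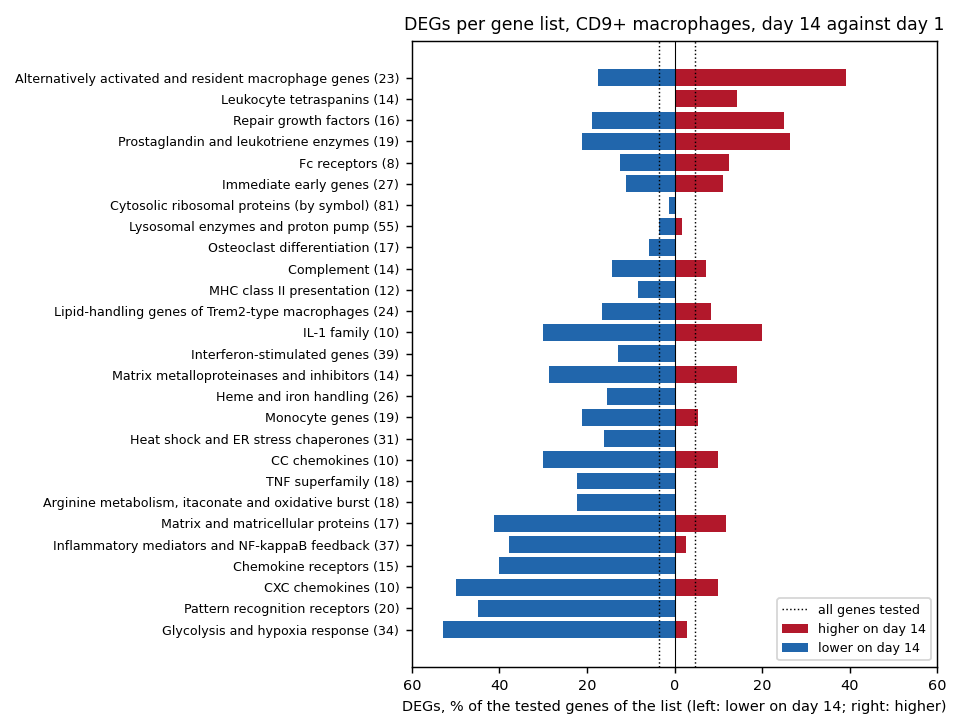
Share of the tested genes of each list, with their number in parentheses, that were DEGs lower (blue, left) or higher (red, right) on POD 14, for the 27 lists of gene programmes with at least 1 DEG (lists of cell type markers are not drawn), with dotted lines at the share over all genes tested (3.48% lower, 4.75% higher). Glycolysis and hypoxia response holds 18 of 34 genes lower, and alternatively activated and resident macrophage genes hold 9 of 23 higher.

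An interaction term tested whether the change over time was different in CD9+ cells. The change itself was called in CX3CR1+ cells for 5.86% of the genes tested (2.39% higher, 3.47% lower) and in F4/80- cells for 3.25% (1.01% higher, 2.24% lower). Against CX3CR1+ macrophages, the change differed for 273 genes (2.28% of those tested), 161 higher (1.34%) and 112 lower (0.933%) in CD9+ cells, and 136 of the 988 DEGs (13.8%) were among them. Against F4/80- cells it differed for 203 genes (1.69%), 132 higher (1.1%) and 71 lower (0.592%), 142 of the DEGs (14.4%) included, and 57 of the DEGs differed in both. The 2 counts were 907 and 961 when POD 1 replicate 1 was left out. CX3CR1+ and F4/80- cells were sorted from the same days as CD9+ cells. The paper's number of mice is too small for a separate pool per library. Libraries must therefore share mice, most simply those of the same replicate number, which the model did not use.

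Nos2 fell in all 3 populations. Its log2 fold change was -7.74 in CD9+ cells, -6.42 ± 0.65 SE in CX3CR1+ and -8.81 ± 0.70 SE in F4/80- cells, and the differences, of -1.31 ± 1.44, adjusted p = 0.71 and 1.07 ± 1.47, adjusted p = 0.78, were not called. Arg1 fell less in CD9+ than in the other cells, with differences of 2.72 ± 0.38, adjusted p = 0.0014 against CX3CR1+ and 4.499 ± 0.66, adjusted p = 0.0044 against F4/80- cells. A larger fall in CD9+ cells was seen for Ccl2, whose differences were -1.498 ± 0.28, adjusted p = 0.0084 and -2.19 ± 0.28, adjusted p = 0.0017. Fn1 was at 10329 and 11453 CPM on POD 1 and 10192 and 10203 CPM on POD 14 in CX3CR1+ cells, a log2 fold change of -0.09 ± 0.23 SE, and the difference from CD9+ cells was -1.80 ± 0.32, adjusted p = 0.0072. Ptgs2 (-1.75 ± 0.36, adjusted p = 0.016) also fell more in CD9+ than in CX3CR1+ cells. Nlrp3 had a difference of -1.76 ± 0.38, adjusted p = 0.021. This was larger than its fall in CD9+ cells, so Nlrp3 did not fall in CX3CR1+ cells. For Il6, which rose in CD9+ cells, the difference from CX3CR1+ cells was 2.46 ± 0.47, adjusted p = 0.0095. The 10 tested CXC chemokines had a median log2 fold change of -3.38 in CX3CR1+ and -1.91 in F4/80- cells. Against CX3CR1+ cells 1 of them had a called difference that was higher and 0 a lower one. Glycolysis and hypoxia genes had medians of -0.90 and -0.47 in these cells. Of these 34 genes, 0 had a higher and 2 a lower called difference from CX3CR1+ cells. From F4/80- cells 1 had a higher and 4 a lower one.

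Of the 11 tested eosinophil markers, 6 had a called difference from CX3CR1+ cells, each higher in CD9+ cells, and 2 had one from F4/80- cells. Their median log2 fold change was 0.92 in CX3CR1+ and 1.99 in F4/80- cells, against 3.37 in CD9+ cells. It was thus above 0 in the other populations as well. In CX3CR1+ cells Epx was at 7.2 to 22 CPM and Prg2 at 7.95 to 53.1 CPM over the 4 libraries. The differences were 3.33 ± 0.74, adjusted p = 0.024 for Epx and 2.80 ± 0.70, adjusted p = 0.043 for Prg2 on the log2 scale. Gas6 had a difference of 5.40 ± 1.02, adjusted p = 0.0095, and Cd63, at 13.7 and 11 CPM on POD 1 and 2 and 4.18 CPM on POD 14 in CX3CR1+ cells, one of 3.20 ± 0.32, adjusted p = 1.68e-04. Against F4/80- cells, Igf1 (6.12 ± 1.146, adjusted p = 0.014), Timp2 (3.62 ± 0.46, adjusted p = 0.0016) and Mmp12 (3.66 ± 0.82, adjusted p = 0.033) had higher changes in CD9+ cells. Each difference was larger than the rise of the gene in CD9+ cells, so these genes did not rise in F4/80- cells. Of the 16 tested growth factors for repair, only Gas6 had a called difference from CX3CR1+ cells, and that of Igf1 was not called.

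**Figure D5:**
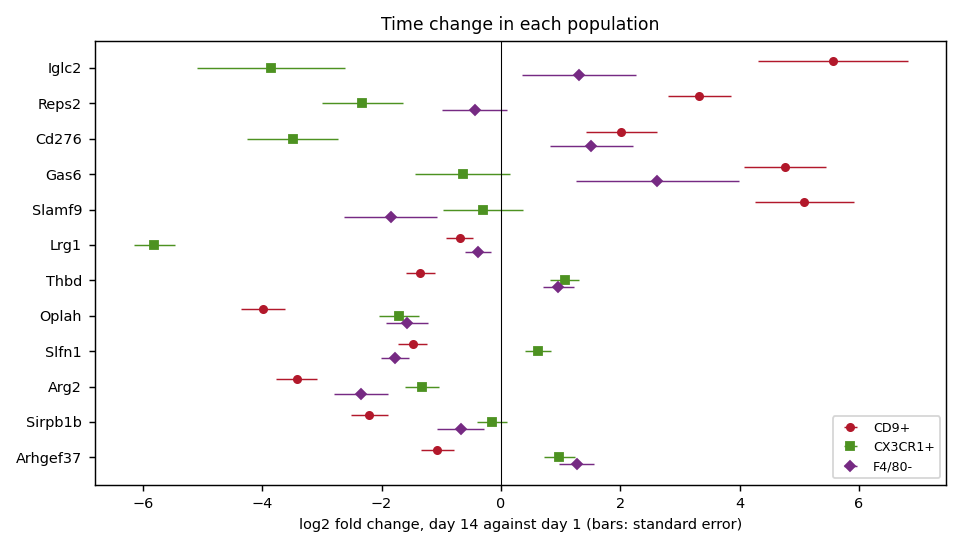
Log2 fold change from POD 1 to POD 14 (x axis) with its standard error for the 12 genes with the largest called difference between CD9+ and CX3CR1+ macrophages, 6 in each direction, in CD9+ (circles), CX3CR1+ (squares) and F4/80- cells (diamonds). The circles of Iglc2, Reps2, Cd276, Gas6 and Slamf9 lie to the right and their squares to the left of 0, the reverse holds for Thbd, Slfn1 and Arhgef37, and for Lrg1, Oplah, Arg2 and Sirpb1b both lie to the left.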

How the data were processed

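Bulk RNA-seq libraries were prepared with the SMART-Seq Stranded kit from flow-sorted cells. Per the study's methods, adapters were removed, read pairs were mapped to mm10 and exonic reads were counted with STAR against Gencode. The authors deposited these counts per gene for the 20200 genes of the table, without normalization, and the strand setting of the counting is not given in the sources used here, so overlapping antisense genes may share reads.

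Genes whose mean reached 3 CPM in any of the 8 groups were tested (11998). The counts of all 16 libraries were fitted by quasi-likelihood (edgeR 4.0.16, R 4.3.3), with TMM factors, 1 mean per group and no covariate, so that all groups shared 1 estimate of the spread. Interaction terms of the same model compared populations. The SE of a fold change or of a difference, printed or drawn, was derived from the test. It is the absolute log2 value divided by the square root of its F statistic. The SE of a difference therefore need not follow from those of its parts. DESeq2 1.42.0 and limma 3.58.1 were alternatives, and a fit without the genes overlapping ribosomal RNA was added after the data had been seen. The steps were tested on simulated counts. These gave every library the same spread, so they do not show how the test behaves with the unlike POD 1 replicates. A floor of 3 counts and 95% intervals (exact binomial) cover counting error only, and no molecular identifiers are named in the sources used here.

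The libraries, gene lists and promoter motifs were chosen with earlier results of these data known. Named genes were the 12 DEGs with the highest and the 12 with the lowest fold change (days not overlapping, at least 10 CPM in the higher group), the 6 each way with the lowest adjusted p, the 6 each way with the largest called difference from CX3CR1+ cells (at least 10 CPM in a CD9+ group), the 10 each way furthest apart between the POD 1 replicates (at least 20 CPM in one), the most abundant members of described lists, and genes of the sort. Of these sets not every gene is printed, and a few list members were named for their role after their values were seen. P-values measure the spread between pools of mice as estimated over all 8 groups. The POD 1 CD9+ pools differed more than those of any other group. The p-values may therefore understate the spread of the pools compared. Promoter windows came from RefSeq and were matched by symbol for 8851 tested genes.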

Additional observations from a re-analysis of the deposited data

Results flagged for a closer look

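The change over time differed between CD9+ and CX3CR1+ macrophages, by the interaction term in edgeR, for 273 genes, and between CD9+ macrophages and F4/80- myeloid cells for 203. The 6 largest differences toward CD9+ cells on the log2 scale, given as CD9+ minus CX3CR1+, were Iglc2 at 9.40, Reps2 at 5.64, Cd276 at 5.51, Gas6 at 5.40, Slamf9 at 5.39 and Lrg1 at 5.12. Those in the opposite direction were Thbd at -2.41, Oplah at -2.28, Slfn1 at -2.10, Arg2 at -2.10, Sirpb1b at -2.05 and Arhgef37 at -2.05.

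Reps2, an endocytic adaptor, was at 1.27 and 6.13 CPM on POD 1 and 29.3 and 41.7 CPM on POD 14 in CD9+ cells and at 2.11 and 3.82 CPM on POD 1 and 0.871 and 0.278 CPM on POD 14 in CX3CR1+ cells, so that the 2 macrophage populations moved in opposite directions (adjusted p of the difference = 0.00215). Thbd, which encodes thrombomodulin, was at 76.3 and 142 CPM on POD 1 and 35.4 and 50.2 CPM on POD 14 in CD9+ cells and at 84 and 92.8 CPM on POD 1 and 190.4 and 179.5 CPM on POD 14 in CX3CR1+ cells (adjusted p of the difference = 0.00171). Lrg1 was at 72.8 and 48.5 CPM on POD 1 and 46.7 and 28.5 CPM on POD 14 in CD9+ cells, where it did not reach the fold change threshold, and at 59.4 and 47.4 CPM on POD 1 and 1.13 and 0.743 CPM on POD 14 in CX3CR1+ cells. The Iglc2 value rests on few reads on POD 1, with 0.636 and 0.106 CPM on POD 1 and 19 and 20.4 CPM on POD 14 in CD9+ cells, and light chain constant genes resemble each other.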

How the results depend on the processing

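The 988 DEGs between POD 14 and POD 1 became 308 with the 4 CD9+ libraries alone, 454 in limma-voom with sample weights, 336 with at least 3 CPM in every group, 2124 without a threshold on the fold change and 533 with glmTreat at 1.5-fold. Leaving out a library gave 577 to 1745, with the lowest count without POD 14 replicate 1 and the highest without POD 1 replicate 1, and the lone library was then assumed to vary like the other groups. All 988 kept their direction in DESeq2 and in the weighted fit. For the difference from CX3CR1+ cells, 273 genes became 439 in DESeq2, 129 with the CPM minimum in every group, 156 with only the populations compared, 103 with glmTreat and 179 to 907 without 1 library. For the difference from F4/80- cells, 203 became 377 in DESeq2, 125 with sample weights, 100 with the CPM minimum in every group, 75 with only the populations compared, 61 with glmTreat and 77 to 961 without 1 library. Mice differed between days, and the deviations of same-numbered CD9+ libraries had r = 0.0984 over genes, so the numbers were not taken as pairs. The replicate number as a replicate block gave 999 DEGs over all libraries, 957 of them shared, and 991 within each day, and changed no count by over 1.5 times. Of 145 called genes for which alternatives were listed, 76 lost the call in at least 1 of 20 settings. Among the 172 genes with listed alternatives, signs turned only for genes not called in the reported fit: Ighg2c, reported at -0.93, was 2.42 with sample weights and -1.92 to 12.92 without 1 library (12.92 without POD 1 replicate 1), Cd9 was -0.059 to 0.32 without 1 library, Ptprc was 0.019 with library size only, Cx3cr1 was -0.0095 without POD 1 replicate 1 and -0.085 to 0.389 over the 4 such fits, Trem2 was -1.04 to 0.063, S100a9 -0.22 to 1.41, Lyz2 -0.041 to 0.101, Ptges3 -0.142 to 0.291 and Ptgs1 -0.176 to 0.87. The cause was not tested. At these depths, changes of genes with 3 counts or fewer on 1 day could be given only as bounds or wide intervals.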

Other observations

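Of 31 tested heat shock and endoplasmic reticulum (ER) stress chaperones, 5 were lower on POD 14 and 0 higher, all of them ER genes. Hspa5, the ER chaperone BiP, was at 818 and 1214 CPM on POD 1 and 378 and 414 CPM on POD 14 (log2 fold change -1.36 ± 0.17 SE, edgeR adjusted p = 8.76e-05), and Hyou1, an ER hypoxia-induced chaperone, at 199 and 350.4 CPM on POD 1 and 117 and 112 CPM on POD 14 (log2 fold change -1.27 ± 0.20 SE, edgeR adjusted p = 5.78e-04). Each POD 1 library was above each POD 14 library for both, the call of Hspa5 held in the 6 fits, and that of Hyou1 was lost without POD 1 replicate 2 (-0.80) and with the 4 CD9+ libraries alone. The list had 2 lower genes without POD 1 replicate 2, and 7 lower and 1 higher without replicate 1.

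Immediate early genes, which respond within minutes to stimulation and to cell handling, gave 3 higher and 3 lower DEGs among 27 tested, and 2 higher and 1 lower with the 4 CD9+ libraries alone. Klf2, a transcription factor that restrains inflammatory activation, rose and was at 189.5 and 146 CPM on POD 1 and 472 and 458 CPM on POD 14 (log2 fold change 1.47 ± 0.25 SE, edgeR adjusted p = 0.0012). Interferon-stimulated genes gave 5 lower and 0 higher DEGs among 39 tested, with a median log2 fold change of -0.53. Rsad2, the antiviral protein viperin, was at 31.4 and 22.9 CPM on POD 1 and 7.39 and 10.1 CPM on POD 14 (log2 fold change -1.64 ± 0.25 SE, edgeR adjusted p = 4.94e-04). Its call was lost with the 4 CD9+ libraries alone, where none of the 39 was called, and without POD 1 replicate 2 the list had 10 lower genes and 1 higher gene, while without replicate 1 it had 3 of each. The call of Klf2 held in the 6 fits.

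Of 12 tested dendritic cell markers 3 were higher and 0 lower, of 10 progenitor markers 4 were higher and 1 lower, of 4 T and NK cell markers 2 were higher, of 7 stromal and bone cell markers 2 were higher, and of 5 endothelial markers 1 was higher, with 0 of 6 erythroid markers called. Leaving out POD 1 replicate 1 gave 1 higher dendritic cell, 1 stromal, 2 endothelial and 1 erythroid marker, and leaving out replicate 2 gave 2 progenitor, 1 stromal and 0 endothelial markers. With the 4 CD9+ libraries alone 0 dendritic cell, 1 progenitor, 1 T and NK cell, 1 stromal and 0 endothelial markers were higher, and with sample weights 0 T and NK cell and 0 stromal markers were. Mpo, the myeloperoxidase of immature granulocytes and a member of the progenitor and neutrophil lists, was at 493 and 325 CPM on POD 1 and 1218 and 721 CPM on POD 14 (log2 fold change 1.24 ± 0.35 SE, edgeR adjusted p = 0.024), and Kit, the receptor of stem cell factor, at 21.8 and 5.28 CPM on POD 1 and 56.2 and 44.7 CPM on POD 14 (log2 fold change 1.86 ± 0.43 SE, edgeR adjusted p = 0.0082). The call of Mpo was lost without POD 1 replicate 2 (0.98) and without POD 14 replicate 1 (0.83), with the 4 CD9+ libraries alone and with sample weights, and that of Kit without POD 14 replicate 1 (1.70) and with the 4 libraries alone. The TNF superfamily gave 4 lower and 0 higher DEGs among 18 tested, monocyte genes 4 lower and 1 higher among 19, complement genes 2 lower and 1 higher among 14, and Fc receptors 1 of each among 8. Leaving out POD 1 replicate 2 gave 2 lower genes of the TNF superfamily and 1 lower and 0 higher complement genes, and leaving out replicate 1 gave 2 higher monocyte genes and 2 higher Fc receptors. With the 4 libraries alone 1 gene of the TNF superfamily, 1 complement gene and 0 Fc receptors were called.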
